A study of Mus musculus with 6 samples.

Results

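Translation initiation factors are the proteins that bring the small ribosomal subunit, the initiator tRNA and an mRNA together at a start codon. Their genes were examined in hippocampal microglia, the resident macrophages of the brain. The set holds every listed gene whose symbol starts with Eif and a digit, without the Eif2ak kinases, which regulate initiation but are not factors. This gave 56 of the 11881 genes in the count table. The rule uses gene names and no measured value, but it was set with earlier results of these data known.

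The cells were sorted as CD11b-positive and CD45-low from the hippocampus of male mice aged 17 to 21 postnatal days. There were 3 libraries with the WT label and 3 with the Mll5+/- label, a genotype with 1 disrupted copy of Mll5 (now Kmt2e), and by the design text these were 3 mice each. Which part of the gene is disrupted was not stated in the labels. RNA-seq libraries were made by SMART-seq amplification of the mRNA and a transposase kit. Levels are given as CPM, counts scaled to a common TMM-adjusted library size, and a fold change is the libraries labelled Mll5+/- minus those labelled WT on the log2 scale. Values per library are given in the order of replicates 1 to 3, and a phrase such as under the WT label means the libraries with that label.

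The libraries held 21075570 to 29730400 counts, and initiation factor genes took 0.487% to 0.601% of them. All 9 microglial markers looked at were listed, with a summed level of 8342 to 12470 CPM under the WT label and 6823 to 7800 CPM under the Mll5+/- label. P2ry12 alone had 4269, 1366 and 5499 CPM against 1115, 1232 and 1087 CPM. Of 6 neuron markers, 1 was listed, at 6.77 to 16.3 against 9.59 to 32.2 CPM. Kmt2e itself differed little between the labels (log2 fold change -0.08, 95% interval -0.79 to 0.63), an interval that leaves out a loss of 1, so the libraries are called throughout by their labels. In such bulk samples, fewer cells of a type and less RNA per cell cannot be told apart.

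The factors act in order. eIF2 carries the initiator tRNA as a complex with GTP, and eIF2B reloads eIF2 with GTP after each round. eIF1 and eIF1A keep the small subunit open for scanning, and eIF3 is the large scaffold on it. eIF4E binds the mRNA cap, eIF4G bridges it to eIF3, and the helicase eIF4A unwinds the leader with the help of eIF4B and eIF4H. eIF5 triggers GTP hydrolysis at the start codon, eIF5B joins the large subunit, and eIF6 keeps free large subunits from joining early. The 4E-binding proteins hold eIF4E away from eIF4G until mTOR phosphorylates them. In macrophages, mTOR signalling to these factors is known to tune which proteins are made on activation.

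Many mRNAs of the translation machinery open with a C followed by a run of pyrimidines, the terminal oligopyrimidine or TOP motif, through which mTOR and LARP1 control them. A run of at least 5 bases that opens with C and holds only C and T was searched on the strand of the mRNA, beginning within 5 bases of the annotated start, in RefSeq promoters of build GRCm38.p6. Of the 56 genes, 40 matched an entry, and 11 of these (27.5%) held such a run, against 23.6% of the tested genes with an entry and 49.2% of the ribosomal protein genes. Read from the annotated start base itself, such a run was held by 2 of the 40 (5%). The shares there were 2.88% of the tested genes and 21.3% of the ribosomal protein genes. The runs of 8 or more bases that begin within 5 bases of the start are shown because they include both gamma subunits of eIF2 and the eIF3 genes Eif3f and Eif3l. Each line gives 10 bases before and 20 bases from the annotated start, with the run in capitals. In Eif2b5 and Eif2s3x the bases just before the run are also C or T, so the pyrimidine stretch is longer than marked.
Eif3f: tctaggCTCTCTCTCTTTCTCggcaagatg
Eif2s3x: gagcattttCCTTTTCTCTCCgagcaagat
Eif2s3y: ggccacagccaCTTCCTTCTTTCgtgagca
Eif3l: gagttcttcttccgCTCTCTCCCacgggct
Eif2b5: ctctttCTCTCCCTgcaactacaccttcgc
Eif2b2: ccgagcggaagttgaCCTCTCTCggcccgg
In GRCm38.p6 these stretches lie at chr7:108934405-108934434 (plus strand), chrX:94212632-94212661 (minus), chrY:1010585-1010614 (plus), chr15:79075213-79075242 (plus), chr16:20498807-20498836 (plus) and chr12:85219471-85219500 (plus), in the same order. Of the 10 tested genes with a run, 6 had positive and 4 negative fold changes (median 0.11), and of the 29 tested genes with an entry and no run, 15 were positive and 14 negative (median 0.02). A match is a description of these letters, and annotated starts can lie some bases from the start used in a cell.

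Whether the initiation machinery differed between the genotypes was asked gene by gene. No initiation factor gene changed past the threshold. Eif2a was the gene of smallest p, with a higher mean level under the Mll5+/- label (56.0 ± 16.8 against 30.3 ± 4.96 CPM, SD, n = 3 each). Eif4g2, Eif5 and Eif3b had lower levels in all 3 of these libraries than in any labelled WT, and the 26 positive and 24 negative fold changes of the tested genes left a median of 0.04.

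Of the 56 genes, 50 passed the low-count filter and were tested, with 0 called at an adjusted p of 0.05 in edgeR's quasi-likelihood test (smallest adjusted p = 0.9995), where 0% of all 10832 tested genes were called. At an unadjusted p under 0.05 there was 1 of 50, a higher one, against 2.88% of all tested genes (1.36% higher and 1.52% lower). DESeq2 called 0 initiation factor genes (smallest adjusted p = 0.848, 1 gene under an unadjusted p of 0.05), where it called 0.26% of genes with an adjusted p. Limma-voom called 0 as well, with 1 gene under an unadjusted p of 0.05, against 4.31% of all tested genes. Levels of 4 genes (8%) did not overlap between genotypes, 1 higher and 3 lower, against 9.32% of all tested genes (4.68% higher and 4.64% lower). The median fold change over all tested genes was 0.02. The counts among initiation factors are thus near those of all genes.

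**Figure D1:**
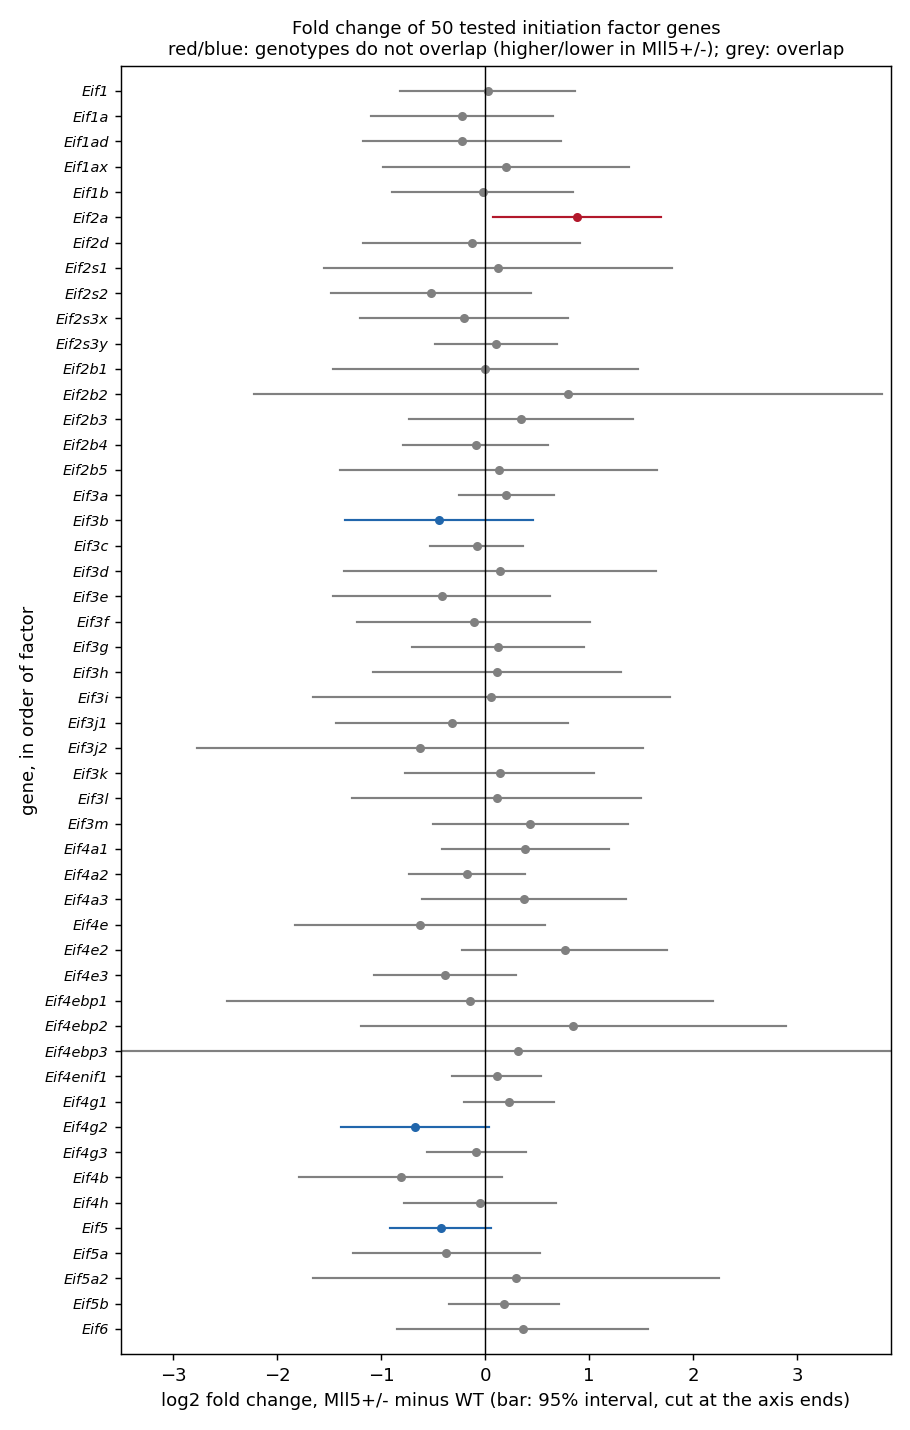
Log2 fold change (x axis, libraries labelled Mll5+/- minus labelled WT) of the 50 tested initiation factor genes (y axis, in order of factor), with points for the estimate and bars for the 95% interval, cut at the axis ends, red or blue where genotypes do not overlap. The interval of Eif2a (0.08 to 1.70) is the 1 that leaves out 0, and Eif4ebp3, the gene of fewest counts, has the widest.

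How much the test could have missed differed by gene. For 14 of the 50 (28%, against 19.5% of all tested genes) the 95% interval lay within a log2 change of 1 in either direction. They include the scaffold genes Eif4g1 (-0.20 to 0.66) and Eif4g3 (-0.56 to 0.39), the eIF3 core genes Eif3a (-0.25 to 0.66) and Eif3c (-0.53 to 0.37), and Eif4enif1 (-0.32 to 0.54), which encodes the protein that shuttles eIF4E into the nucleus. For the other tested genes the interval reached past a change of 1.

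eIF2 and the factors named after it came first. Eif2a does not encode a subunit of eIF2, in spite of its symbol. It encodes a separate protein, eIF2A, that can bind initiator tRNA without GTP and has been linked to initiation at non-AUG codons. The gene lies on chromosome 3 from 58433242 to 58464922 (mm39). It had 35.8, 28.7 and 26.3 CPM under the WT label and 37.9, 58.9 and 71.2 CPM under the Mll5+/- label. The groups did not overlap, but Mll5+/- replicate 1 lay next to WT replicate 1. The fold change was 0.89 (SE 0.356, edgeR unadjusted p = 0.0350, place 212 among the 10832 tested genes, adjusted p = 0.9995). With 1 library left out it lay between 0.67 (Mll5+/- replicate 3 left out, edgeR unadjusted p = 0.123) and 1.09 (Mll5+/- replicate 1 left out, edgeR unadjusted p = 0.0174).

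The 2 libraries highest in Eif2a, Mll5+/- replicates 2 and 3, were also the highest in Mrc1. This gene, a marker of border macrophages, had 93.3, 81.4 and 109 CPM under the WT label and 80.5, 179 and 190 CPM under the Mll5+/- label. The summed level of the 3 listed of 4 border macrophage markers ran from 81.7 to 111 and from 82.2 to 196 CPM, most of it from Mrc1. Cd163 and Lyve1 were at 0 in 3 and 2 of the 6 libraries and did not share the order of Mrc1. Cd163 had 0, 0 and 2.67 against 0, 0.176 and 5.25 CPM. Lyve1 had 9.07, 0.269 and 0 against 1.74, 16.3 and 0 CPM. Serp1, whose listed span overlaps that of Eif2a by 72 bases, had 21.2, 43.1 and 27.5 against 51.6, 54.6 and 40.2 CPM. Its fold change was positive as well (0.67, edgeR unadjusted p = 0.109), with overlapping groups and another order of libraries than Eif2a. Whether Serp1 and Eif2a share reads was not tested. The part of border macrophage RNA in the Eif2a level was not tested.

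Levels of the eIF2 subunit genes overlapped between genotypes. Eif2s1, the alpha subunit whose phosphorylation by stress kinases shuts down initiation, had 12.3, 12.4 and 34.3 CPM under the WT label and 5.13, 21.8 and 37.2 CPM under the Mll5+/- label. Both groups thus spanned low and high libraries, and the fold change of 0.12 had an SE of 0.738. Eif2s2, the beta subunit, had 110, 86.9 and 230 against 146, 82.3 and 68.8 CPM (fold change -0.52, edgeR unadjusted p = 0.250). WT replicate 3 held the highest level of Eif2s2, and without it the fold change was 0.01. Eif2d, an initiation factor that acts apart from eIF2, had 13.01 to 21.2 against 13.99 to 18.9 CPM.

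The gamma subunit is made from an X-linked and a Y-linked gene in male mice, whose near-identical sequences may share reads. Eif2s3y had 65.6, 66.8 and 73.6 CPM under the WT label and 73.1, 83.5 and 64.6 CPM under the Mll5+/- label, the smallest range among the eIF2 genes. Eif2s3x had 23.5, 23.2 and 47.2 against 35.9, 24.1 and 21.5 CPM. The Y-linked gene took 73.6%, 74.2% and 60.9% of the counts of the pair under the WT label and 67.1%, 77.6% and 75.1% under the Mll5+/- label. The means of 69.6% ± 7.47 and 73.3% ± 5.48 (SD, n = 3 each) differed by 3.69 percentage points, within the spread of the libraries (exact two-sided permutation test p = 0.5, where 0.1 is the smallest that 3 against 3 allows).

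The 5 eIF2B genes encode the exchange factor that is hit in vanishing white matter disease, a leukodystrophy. Their median fold change was 0.13, with 3 positive and 2 negative and 0 of 5 under an unadjusted p of 0.05. The median was -0.20 without Mll5+/- replicate 1 and 0.31 without Mll5+/- replicate 3. Eif2b4, the delta subunit, had 55.8, 43.6 and 62.8 CPM under the WT label and 60.8, 43.5 and 48.0 CPM under the Mll5+/- label, nearly the same span. Eif2b3, the gamma subunit and the member of smallest p, had 18.2, 11.4 and 26.6 against 26.0, 27.7 and 17.7 CPM (edgeR unadjusted p = 0.484). Eif2b2, the beta subunit, had the largest range of all tested initiation factor genes, with 1.88, 5.73 and 0.312 against 7.65, 2.04 and 4.11 CPM. In WT replicate 3 these are 9 counts. Eif2b5, the catalytic epsilon subunit, ran from 8.88 to 26.2 and from 5.76 to 26.2 CPM, and Eif2b1, the alpha subunit, from 8.15 to 10.95 and from 4.73 to 12.9 CPM.

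Levels of different genes were set side by side per transcript length, as CPM per kb of the longest protein-coding transcript in GENCODE M21, an annotation of another build than the counts. Within eIF2, whose subunits bind 1 to 1, the alpha subunit had a mean of 6.02, the beta subunit 47.4 and the gamma subunit genes 38.8 (Eif2s3y) and 8.02 (Eif2s3x) CPM per kb. Within eIF2B, Eif2b4 stood at 25.9 CPM per kb and the other 4 genes between 2.26 and 7.07. The lowest library of Eif2b4 (21.5) lay above the highest of Eif2b5 (10.3). Among the other 4 eIF2B genes, levels of neighbours in the order overlapped.

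**Figure D2:**
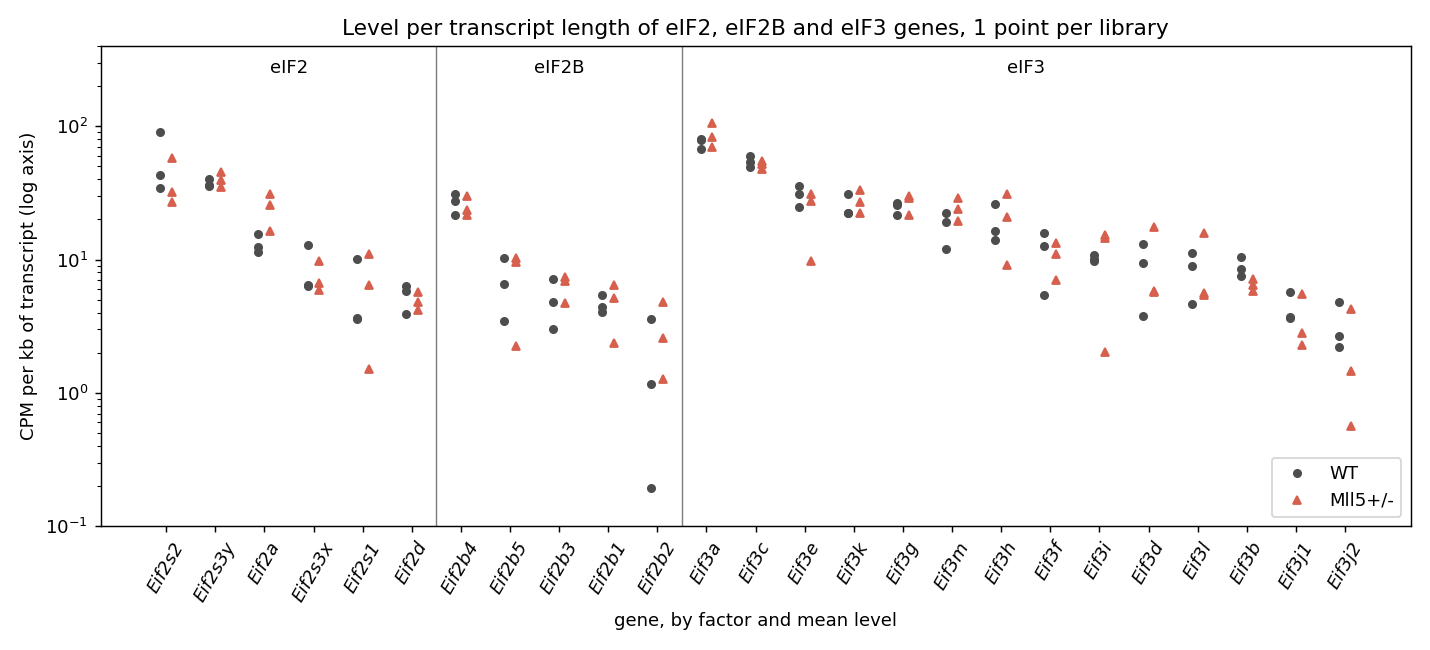
CPM per kb of transcript (y axis, log scale) of the tested eIF2, eIF2B and eIF3 genes (x axis), 1 point per library, circles for libraries labelled WT and triangles for Mll5+/-. Eif3a and Eif3c lie above all other eIF3 genes in every library, and most points of the 2 genotypes share 1 range at each gene.

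eIF3 was represented by all 14 of its listed genes, all tested, with 8 positive and 6 negative fold changes (median 0.08) and 0 of 14 under an unadjusted p of 0.05. The sign of this median turned with single libraries, to -0.24 without Mll5+/- replicate 1, -0.12 without WT replicate 1 and -0.07 without Mll5+/- replicate 2. Eif3b, which encodes the core subunit that binds the j subunit and the small ribosomal subunit, had 30.7, 22.1 and 24.8 CPM under the WT label and 16.96, 21.1 and 19.0 CPM under the Mll5+/- label. The groups were apart by about 1 CPM, and the fold change was -0.44 (SE 0.397, edgeR unadjusted p = 0.293). Eif3a, the largest subunit, had 402, 409 and 344 against 426, 360 and 546 CPM, and its highest level was in Mll5+/- replicate 3. Eif3m had 28.8, 15.4 and 24.7 against 25.0, 30.7 and 37.4 CPM (fold change 0.43, edgeR unadjusted p = 0.321).

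Withunder the Mll5+/- label, eIF3 genes were not all high or all low in the same library. Mll5+/- replicate 3 held the lowest level of Eif3e (14.6 CPM, against 37.4 to 53.4 under the WT label and 41.2 and 47.0 in the other Mll5+/- libraries). It also held the lowest level of Eif3h (11.8 CPM, against at least 18.2 in the other 5) and of Eif3i (2.27 CPM, against at least 10.9). In the same library Eif3a, Eif3m, Eif3g and Eif3k were at their highest, with 546, 37.4, 32.8 and 30.2 CPM. Eif3d had 24.8, 17.8 and 7.11 against 33.1, 10.9 and 11.01 CPM, and Eif3l 8.95, 21.8 and 17.4 against 30.7, 10.5 and 10.96 CPM, both highest in Mll5+/- replicate 1. Eif3f had 13.6, 31.9 and 39.8 against 27.6, 33.6 and 17.6 CPM.

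The j subunit is encoded by a pair of near-identical genes, Eif3j1 and Eif3j2, that may share reads. Eif3j2 had 6.31, 5.27 and 11.4 CPM under the WT label and 10.1, 1.33 and 3.50 CPM under the Mll5+/- label. Eif3j1 had 19.9, 20.2 and 31.2 against 29.6, 12.4 and 15.2 CPM, and so was high and low in the same libraries as Eif3j2. Their fold changes were -0.63 (SE 0.944) and -0.32 (SE 0.491).

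Per length, Eif3a had a mean of 80.9 and Eif3c of 53.0 CPM per kb, and the lowest library of Eif3a (67.1) lay above the highest of Eif3c (60.1). Eif3e, Eif3k, Eif3g, Eif3m and Eif3h followed at 26.6, 26.4, 25.6, 21.0 and 19.6, then Eif3f, Eif3i, Eif3d, Eif3l and Eif3b at 10.9, 10.4, 9.19, 8.60 and 7.62 CPM per kb. The highest library of Eif3e (35.4) was below the lowest of Eif3c (47.5), and from Eif3e to Eif3b each gene overlapped the next in that order. Eif3j1 (3.95) and Eif3j2 (2.66) were lowest and overlapped each other, and the highest library of Eif3j1 lay just below the lowest of Eif3b (both 5.76 when rounded), so that the mean levels of the eIF3 genes spanned 30.4-fold. Within single libraries the span ran from 17.9-fold in WT replicate 3 to 125-fold in Mll5+/- replicate 2, where Eif3j2 was at its lowest with 38 counts. The low end of the 30.4-fold and 125-fold spans is Eif3j2, which may share reads with Eif3j1.

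The scanning factors eIF1 and eIF1A showed no separation of the genotypes. Eif1a, which encodes eIF1A, had 101, 101 and 165 CPM under the WT label and 158, 58.2 and 97.4 CPM under the Mll5+/- label, where the last 2 lay below all those with the WT label and the first within their range. Its fold change was -0.22 (SE 0.385, edgeR unadjusted p = 0.575). The X-linked paralog Eif1ax had 13.1, 19.3 and 10.6 against 22.1, 16.5 and 10.7 CPM. Eif1, which guards start codon choice, had 35.6, 32.2 and 68.1 against 47.6, 44.3 and 46.3 CPM, and its paralog Eif1b 21.4, 42.3 and 30.7 against 32.1, 33.1 and 27.6 CPM. Eif1ad ran from 18.6 to 23.2 and from 16.2 to 19.5 CPM.

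At the cap, the scaffold gene Eif4g2 (chromosome 7, 110666957 to 110682237, mm39) had a lower level under the Mll5+/- label. It encodes DAP5, a relative of eIF4G that lacks the eIF4E binding site and serves cap-independent and leaky initiation. It had 202, 226 and 280 CPM under the WT label and 155, 201 and 86.4 CPM under the Mll5+/- label. The groups do not overlap, with WT replicate 1 and Mll5+/- replicate 2 less than 1 CPM apart. The fold change was -0.68 (SE 0.314, 95% interval -1.39 to 0.04, edgeR unadjusted p = 0.0601), with -0.42 when Mll5+/- replicate 3 was left out and -0.98 when Mll5+/- replicate 2 was. The main scaffold Eif4g1 had 1052, 928 and 770 against 1001, 926 and 1293 CPM (fold change 0.23, edgeR unadjusted p = 0.258). Eif4g3 had 243, 206 and 286 against 239, 197 and 255 CPM.

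The helicase gene Eif4a1 was the most abundant initiation factor gene, at a mean of 696 CPM per kb, above 99.5% of tested genes. It had 621, 883 and 1708 CPM under the WT label and 1109, 1628 and 1460 CPM under the Mll5+/- label. WT replicate 3 was the highest library and the other WT libraries the lowest. The fold change was 0.39 (SE 0.350, edgeR unadjusted p = 0.302), and with 1 library left out it lay between 0.09 (WT replicate 1 left out, edgeR unadjusted p = 0.765) and 0.89 (WT replicate 3 left out, edgeR unadjusted p = 0.00609). Cd68, a lysosomal gene of macrophages whose listed span lies 783 bases from that of Eif4a1, had 228, 204 and 251 against 266, 246 and 195 CPM.

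Eif4a2, the paralog, had 223, 200.5 and 167 CPM under the WT label and 219, 172 and 133 CPM under the Mll5+/- label. Of the counts of the pair, Eif4a1 took 73.6%, 81.5% and 91.1% in the former and 83.5%, 90.4% and 91.6% in the latter. The means of 82.0% ± 8.77 and 88.5% ± 4.40 (SD, n = 3 each) differed by 6.49 percentage points (exact two-sided permutation test p = 0.3). Of the 2 shares compared, both had an adjusted p of 0.5 by the exact permutation test. Eif4a3, a related helicase that belongs to the exon junction complex rather than to initiation, had 20.8, 15.9 and 19.7 against 20.9, 33.7 and 18.6 CPM. The helicase cofactor Eif4b had 53.2, 49.5 and 58.3 CPM under the WT label and 22.6, 50.5 and 18.4 CPM under the Mll5+/- label. It was low in Mll5+/- replicates 1 and 3, while replicate 2 lay within the WT range. Its fold change was -0.81 (SE 0.432, edgeR unadjusted p = 0.0927), and it ranged from -1.40 without Mll5+/- replicate 2 (edgeR unadjusted p = 0.00705) to -0.56 without replicate 3. Eif4h, the other cofactor, had 45.4, 47.5 and 59.7 against 35.9, 59.2 and 52.3 CPM.

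**Figure D3:**
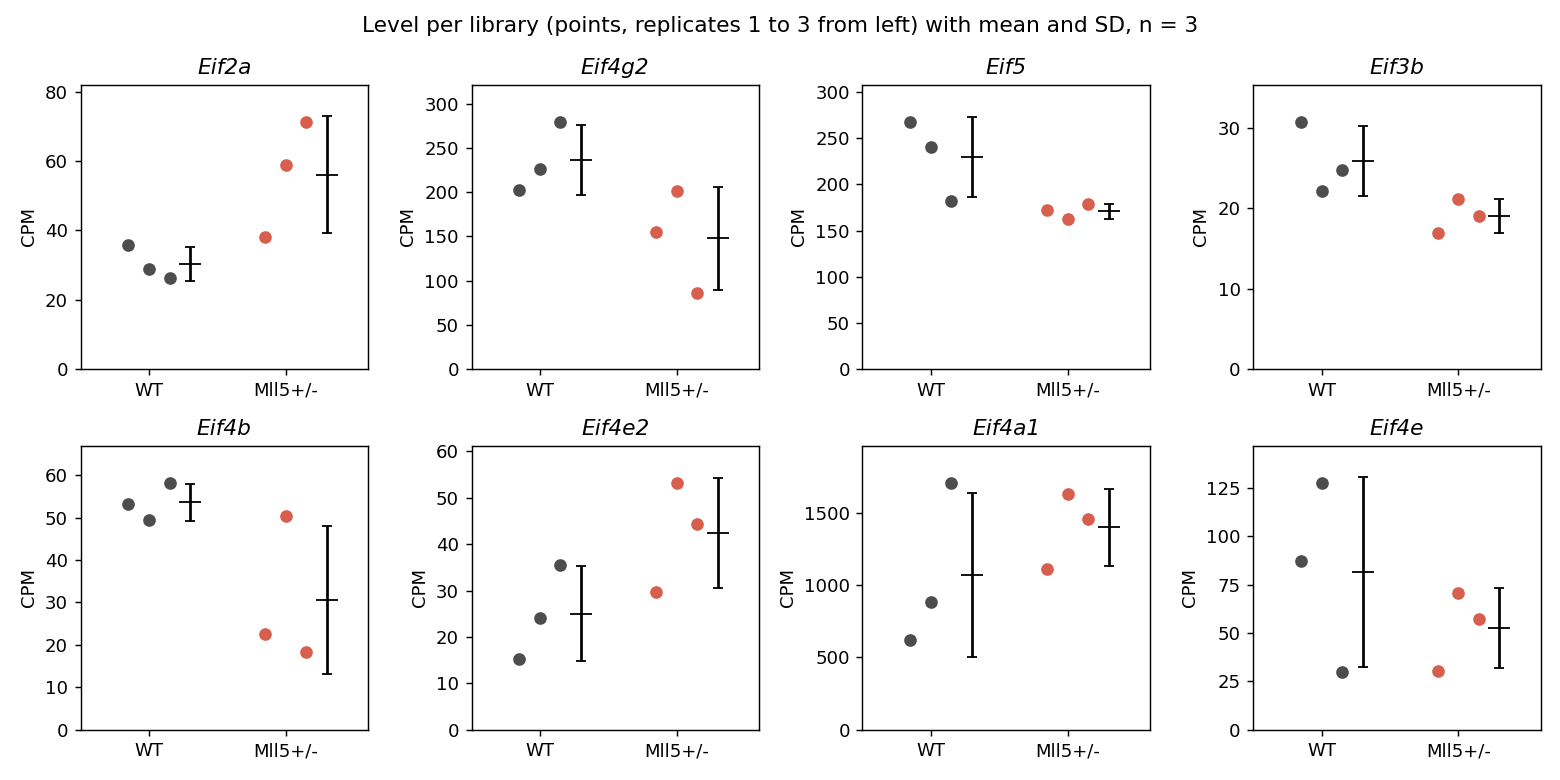
CPM (y axis, from 0) of 8 initiation factor genes in each library labelled WT (grey) and Mll5+/- (red), with the mean and SD of 3 libraries beside the points. Eif2a points lie above, and Eif4g2, Eif5 and Eif3b points below, the WT range, while the other 4 genes overlap.

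Among the cap-binding proteins, Eif4e2, which encodes 4EHP, a cap-binding repressor of translation, had 15.2, 24.1 and 35.6 CPM under the WT label and 29.6, 53.3 and 44.4 CPM under the Mll5+/- label. The ranges overlap through WT replicate 3, and the fold change was 0.77 (SE 0.434, edgeR unadjusted p = 0.113). It was 0.49 with WT replicate 1 left out (edgeR unadjusted p = 0.309) and 1.11 with WT replicate 3 left out (edgeR unadjusted p = 0.0454). Eif4e, the main cap-binding protein, had 87.1, 128 and 29.6 against 30.2, 70.7 and 57.3 CPM (fold change -0.63, edgeR unadjusted p = 0.266). Eif4e3 had 77.1, 80.5 and 54.4 against 65.6, 47.7 and 49.0 CPM. Eif4enif1 was the most abundant gene of this group, with 265, 239 and 218 against 249, 239 and 292 CPM. Gigyf1 and Gigyf2 encode the partners of 4EHP. Gigyf1 had 88.2, 106 and 157 against 136, 205 and 215 CPM (fold change 0.66, edgeR unadjusted p = 0.0512), while Gigyf2 had a fold change of 0.00 (SE 0.205).

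The genes of the 4E-binding proteins were low and uneven. Eif4ebp2 had 6.65, 11.6 and 0.833 CPM under the WT label and 9.70, 14.4 and 10.4 CPM under the Mll5+/- label. WT replicate 3 stood apart with 24 counts, and the fold change of 0.85 had an SE of 0.899. Eif4ebp1 had 4.47, 3.19 and 8.54 against 1.22, 4.49 and 8.93 CPM. Eif4ebp3 had 0, 17 and 0 counts against 10, 12 and 0 counts, and its listed span lies within that of Maskbp3, so its reads cannot be assigned to it alone.

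At the start codon, Eif5 (chromosome 12, 111504450 to 111513186, mm39), the activator of GTP hydrolysis by eIF2, had 268, 240.1 and 182 CPM under the WT label and 172, 162 and 179 CPM under the Mll5+/- label. The 3 latter lay close together and below all the former, by less than 4 CPM from WT replicate 3. The fold change was -0.43 (SE 0.214, 95% interval -0.91 to 0.06, edgeR unadjusted p = 0.0761), and with 1 library left out it lay between -0.57 (WT replicate 3 left out) and -0.32 (WT replicate 1 left out). It was the 1 initiation factor gene under an unadjusted p of 0.05 in limma-voom (unadjusted p = 0.0382). Eif5b, the subunit-joining GTPase, had 266, 317 and 309 against 289, 271 and 452 CPM, with Mll5+/- replicate 3 above the other 5.

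The name of eIF5A is historical, since the protein helps elongation and termination and carries hypusine, a modified lysine. Eif5a had 29.5, 55.0 and 69.1 CPM under the WT label and 37.4, 50.1 and 31.0 CPM under the Mll5+/- label (fold change -0.37, edgeR unadjusted p = 0.372). Its paralog Eif5a2 had 1.67, 20.2 and 18.2 against 7.65, 16.1 and 25.4 CPM, with WT replicate 1 far below the other libraries. Dhps and Dohh encode the enzymes that make hypusine, and their fold changes were -0.13 (SE 0.319) and 1.03 (SE 2.35). Eif6, the anti-joining factor, had 8.99, 11.7 and 16.0 against 21.7, 13.9 and 11.5 CPM (edgeR unadjusted p = 0.514).

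The 6 genes that did not pass the filter were relatives of eIF1A and eIF4A3. Eif1ad4, Eif1ad15, Eif1ad17 and Eif1ad18 had at most 8 counts in a library, and Eif4a3l2 2 to 13. Eif4a3l1 had 0 counts under the WT label, where 3 counts correspond to 0.104 to 0.125 CPM, and 4, 1 and 4 counts under the Mll5+/- label.

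The spread between the libraries was described without a test. The highest library was over 4-fold (2 on the log2 scale) above the lowest for 11 of 50 (22%), against 49.4% of all tested genes, and under 2-fold above it for 18 (36%) against 20.9%. Their median level was 28.7 CPM against 17.8 CPM for all tested genes, and the part of the level in this was not tested. The 11 uneven genes include 3 of the 3 genes of 4E-binding proteins. WT replicate 3 held the highest level of 16 of the 50 genes (32%, against 18.8% of all tested genes) and the lowest of 11. The mean deviation over the 50 genes was small in each library, at -0.15, 0.10 and 0.02 on the log2 scale under the WT label and 0.12, 0.02 and -0.12 under the Mll5+/- label. By this mean, no library was high or low for the set as a whole. The summed level, in which abundant genes weigh more, ran from 4864 CPM in WT replicate 1 to 5981 CPM in Mll5+/- replicate 3.

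**Figure D4:**
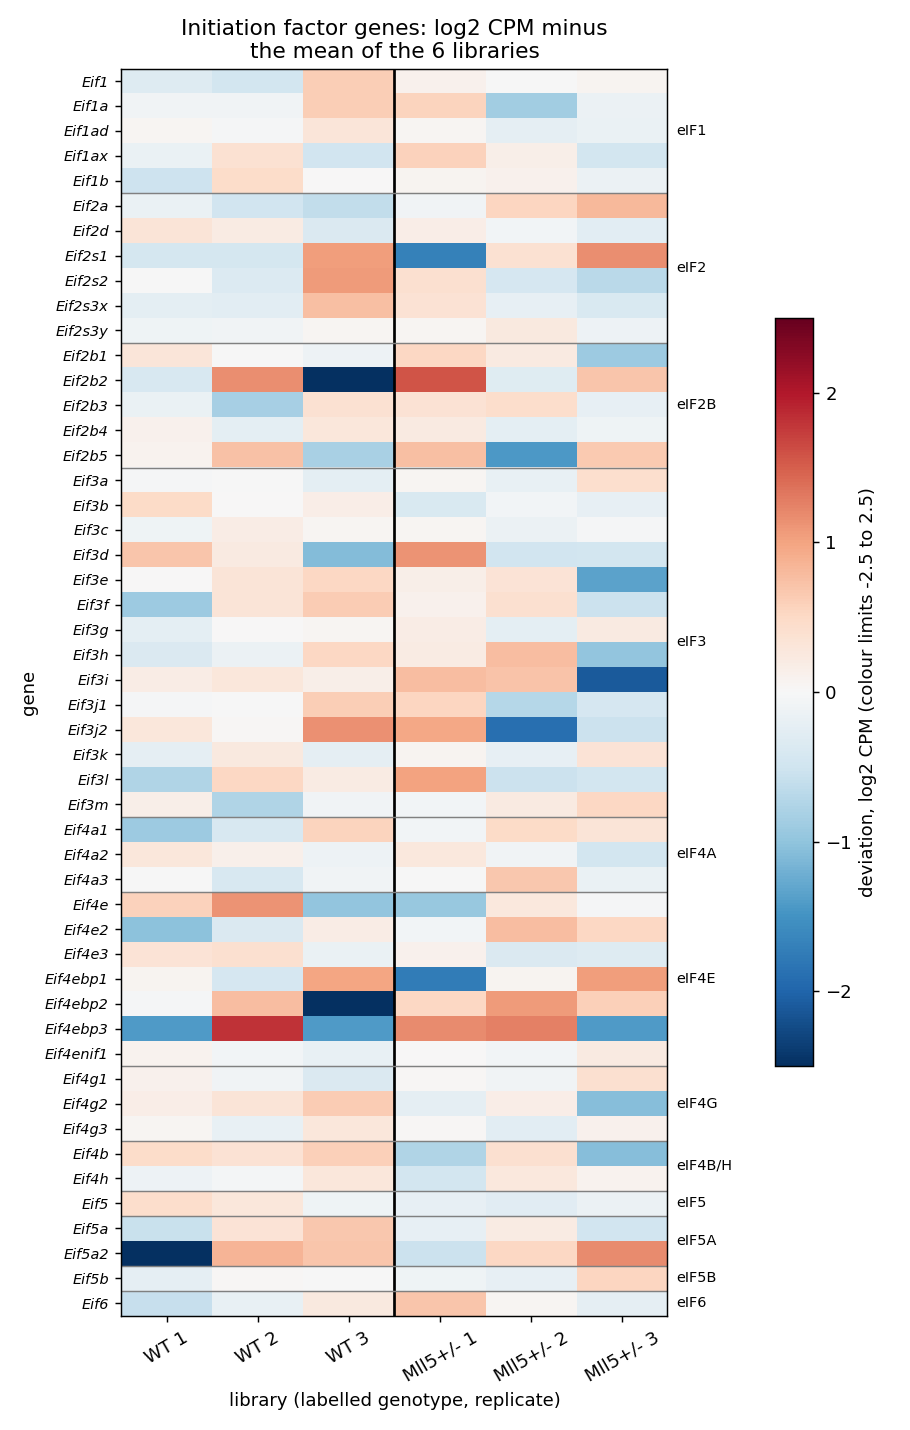
Log2 CPM of each tested initiation factor gene (rows, by factor) in each library (columns, WT left and Mll5+/- right of the line), as the deviation from the mean of the 6 libraries. Single cells such as Eif2b2 and Eif4ebp2 in WT replicate 3 and Eif3i in Mll5+/- replicate 3 stand out, and no column is of 1 colour.

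Other genes of the pathway were looked at by lists. Of 22 tested regulators of initiation, among them the eIF2 kinases, their phosphatase partners and the mTOR and MNK pathways, 0 were called, with 12 positive and 10 negative fold changes (median 0.04). Eif2ak3, the kinase PERK of the endoplasmic reticulum, had 8.95, 9.01 and 16.2 CPM under the WT label and 23.8, 23.2 and 17.3 CPM under the Mll5+/- label (fold change 0.91, SE 0.493, edgeR unadjusted p = 0.0977). Rps6ka1, an RSK kinase that phosphorylates eIF4B, had 160, 164 and 142 against 219, 132 and 299 CPM.

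Of 22 tested partners at the cap, the poly(A) tail and in scanning, 12 had positive and 10 negative fold changes (median 0.04). At an unadjusted p under 0.05 in edgeR there was 1 of 22, against 2.88% of all tested genes. This was Dhx29, a helicase for structured leaders, with 37.1, 34.3 and 43.0 CPM under the WT label and 25.9, 15.7 and 10.96 CPM under the Mll5+/- label. The groups do not overlap, as for 3 of the 22 genes, all lower, against 9.32% of all tested genes (4.64% lower). The fold change of Dhx29 was -1.12 (SE 0.435, edgeR unadjusted p = 0.0304, adjusted p = 0.9995). Of 16 tested elongation and termination factors, 0 had an unadjusted p under 0.05 (7 positive, 9 negative, median -0.11). Eef1b2, an exchange factor for the elongation factor eEF1A, had 108, 90.2 and 146 against 118, 190 and 201 CPM, and Eef2k, the kinase that inhibits eEF2, 151, 119 and 138 against 132, 69.2 and 35.7 CPM (edgeR unadjusted p = 0.0840 and 0.0992). No gene of the 3 lists passed an adjusted p of 0.05 in edgeR.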

How the data were processed

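A single table of raw counts by gene was deposited by the authors, all whole numbers, with coordinates that follow the build mm39. The submitters' processing notes name FastQC for read quality, STAR, StringTie and DESeq2, without versions. How reads were counted and whether strand was used is not stated there, so overlapping genes and close paralogs may share reads.

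Genes were kept with filterByExpr by genotype (minimum count 10, minimum total 15), which left 10832 of 11881. Libraries were scaled by TMM and compared in edgeR 4.0.16 by its quasi-likelihood F test, with robust estimates of dispersion, and limma 3.58.1 and DESeq2 1.42.0 served as alternatives (R 4.3.3). Benjamini-Hochberg adjustment ran over all tested genes, with a threshold of 0.05, two-sided. Simulated data served as a check of the script. How well changes can be found at the spread of these libraries is not judged from that check. SEs come from the coefficient and its F statistic. Log2 levels use a prior count of 2. Intervals and floors cover counting and library spread only, and amplified reads are not independent molecules.

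The members and lists were chosen with earlier results of these data known. Values per library are given for the member of smallest p and the most abundant of each factor, for members without overlap, under an unadjusted p of 0.05, at 0 in a genotype or among the 5 of largest range, and for the 2 genes of smallest p per list. Other genes named with values were chosen after their values were seen. Alternatives were other tests, scalings, filters, an adjusted p of 0.1 and leaving out each library.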

Additional observations from a re-analysis of the deposited data

How the results depend on the processing

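No initiation factor gene was called in edgeR, DESeq2 or limma-voom, with DESeq2 size factors, total counts, no filter, a filter of 1 CPM in 3 libraries, an adjusted p of 0.1, or without any 1 library. Over all genes, edgeR called 0 and DESeq2, run on all listed genes, called 29 (11 higher, 18 lower), and over the left-out libraries edgeR called 0 to 2 genes. Under an unadjusted p of 0.05 there were 0 to 4 initiation factor genes with 1 library left out, and 4 without WT replicate 3. The shares of all tested genes in the same fits are not given here, so these counts are not read as a result about initiation factors. No paired analysis was possible because the replicate numbers only follow the order of the samples. For 23 tested genes described above, the fold change kept its direction in 136 of 137 values under other tests, scalings and filters. The exception was Eif2b4, at 0.0011 in limma-voom. With 1 library left out it kept its direction in 125 of 138 values, and 7 genes turned in at least 1 of them. Their ranges were -0.67 to 0.053 for Eif1a, -0.26 to 0.029 for Eif2b4, -0.93 to 0.0078 for Eif2s2, -0.26 to 5.83 for Eif4ebp3, -0.22 to 0.12 for Eif4h, -0.24 to 0.71 for Eif5a2 and -0.10 to 0.30 for Eif5b, and none passed the threshold. The cause of these turns was not tested. Median fold changes of factors also turned with 1 library left out, with ranges of -0.25 to 0.04 for eIF1, -0.11 to 0.18 for eIF2, -0.20 to 0.31 for eIF2B, -0.24 to 0.05 for eIF3, -0.25 to 0.13 for eIF4E, -0.21 to 0.04 for eIF4G and -0.45 to 0.24 for eIF5A. Those of eIF4A, eIF4B with eIF4H, eIF5 and eIF6 did not turn. Limits are the 3 libraries per genotype, a biological coefficient of variation of 80.4% over all genes, and few counts for some genes, such as Eif2b2 and Eif4ebp3.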
